A study of Mus musculus with 4 samples.

Results

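Complement is a set of plasma and tissue proteins that mark and attack foreign or damaged surfaces. In the classical pathway C1q binds a target and activates the proteases C1r and C1s, which cut C4 and C2 to build the enzyme that cleaves C3. In the alternative pathway factor B joins C3b to form another enzyme of the same action, and C1 inhibitor blocks C1r and C1s. The liver makes most of the circulating proteins, and fibroblasts and macrophages are known local sources. The 7 genes described here are C1ra and C1s1 (the mouse genes of C1r and C1s), C4b, C2, C3, Cfb (factor B) and Serping1 (C1 inhibitor). They were taken by name as a fixed set of complement components and 1 regulator, and are 7 of the 18108 genes common to the files.

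The cells came from aortas of male mice of the strain Mef2c-mTmG, in which a membrane reporter changes colour in cells with a history of Cre activity. The study compared how cells of second heart field (SHF) origin and cells of other origin in the ascending aorta respond to angiotensin II (AngII), a vasoconstrictor peptide. Living single cells were sorted by lineage and captured with 10x 3' chemistry. The groups used were SHF_Baseline (no infusion), SHF_AngII (3 days of AngII) and CNC_AngII (3 days of AngII, the other sorted lineage, whose abbreviation the labels do not spell out). All groups share the strain and the sex. The labels do not give the age of the mice or say how many were pooled, and the CNC_Baseline sample was not analysed here. Each group had 1 library, so no value below has a replicate, no test was made, and every interval covers counting error only.

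The libraries held 9412, 11166 and 11098 barcodes and 92474476, 147854476 and 150954701 UMIs (unique molecular identifiers, counts of captured transcripts), in the order SHF_Baseline, SHF_AngII and CNC_AngII, which is kept throughout. After filtering, 8374, 9299 and 10194 cells remained, and 29 to 34 barcodes were shared by each pair of libraries. In all, 3 classes of cells were cut by marker counts. Smooth muscle cells (at least 5 UMIs of Myh11, no Pdgfra) numbered 2259, 4649 and 6385. Fibroblasts (at least 1 UMI of Pdgfra, at most 2 of Myh11) numbered 3939, 2640 and 842. Macrophages (at least 5 UMIs of Csf1r, Lyz2 and Fcer1g together, under 5 of Myh11) numbered 11, 24 and 1792. A further 25.9%, 21.4% and 11.6% of the kept cells fell into no class. The sort can set these numbers, so they are not compared. Levels are CPM, the UMIs of a gene in a class and library scaled to a class total of 1000000.

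The class names were checked against 7 other markers each. In smooth muscle cells the 7 smooth muscle markers summed to 59120, 68719 and 61050 CPM and in fibroblasts the 7 fibroblast markers to 38471, 15931 and 14075 CPM. The macrophages of CNC_AngII carried 5234 CPM of macrophage markers and 335 CPM of fibroblast markers. The 11 and 24 cells in the macrophage class of the SHF libraries carried 2503 and 1497 CPM of macrophage markers beside 18607 and 10130 CPM of fibroblast markers, so the label is doubtful there and those cells enter no comparison. In their counts C3 had 14 and 41 UMIs, C4b 11 and 26, C1ra 6 and 10, C1s1 4 and 14, Serping1 74 and 176, Cfb 0 and 32, and C2 0 and 0.

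C1ra, C1s1, C4b, Cfb and C2 lie in 2 clusters of the genome (mm10, GENCODE M21). C1ra (ENSMUSG00000055172, chr6:124512405-124523443, plus strand) and C1s1 (ENSMUSG00000038521, chr6:124530345-124542359, minus strand) are neighbours on chromosome 6. C4b (ENSMUSG00000073418, chr17:34728380-34743882), Cfb (ENSMUSG00000090231, chr17:34856374-34862518) and C2 (ENSMUSG00000024371, chr17:34862604-34898265) lie on the minus strand of chromosome 17, in the major histocompatibility region. C3 (ENSMUSG00000024164, chr17:57203970-57228136, minus strand) lies farther along the same chromosome, and Serping1 (ENSMUSG00000023224, chr2:84765387-84775444, minus strand) lies on chromosome 2. The RefSeq promoter table (GRCm38.p6) held 3 of the 7, C3, C1s1 and C1ra. The windows of C3 and C1s1 are shown because C3 differed little between the SHF libraries in fibroblasts, whereas C1s1 was lower in SHF_AngII in both classes. Each is the 250 bases before the start site, 5′ to 3′ on the gene's strand, at chr17:57228137-57228386 for C3 and chr6:124542360-124542609 for C1s1, with capitals at matches to the motifs below. The window of C1ra is not shown, since its RefSeq start lies 216 bases inside the GENCODE gene.

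C3: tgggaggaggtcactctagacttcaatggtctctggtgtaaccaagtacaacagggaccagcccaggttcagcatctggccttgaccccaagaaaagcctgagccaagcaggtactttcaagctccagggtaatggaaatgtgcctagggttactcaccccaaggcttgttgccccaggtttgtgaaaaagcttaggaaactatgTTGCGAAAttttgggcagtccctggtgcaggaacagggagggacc

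C1s1: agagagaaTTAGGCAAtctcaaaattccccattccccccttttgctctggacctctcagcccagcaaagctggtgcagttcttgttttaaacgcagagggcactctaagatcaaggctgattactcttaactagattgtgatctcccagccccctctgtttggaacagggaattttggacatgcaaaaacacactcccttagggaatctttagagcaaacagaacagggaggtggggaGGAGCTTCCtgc

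In all, 4 motifs of factors known from acute-phase genes were searched on both strands: C/EBP (TTGCNNAA), STAT (TTCNNNGAA), IRF (GAAANNGAA) and NF-kB (GGNNNTTCC). The C3 window held 1 C/EBP match, TTGCGAAA, beginning 45 bases before the start. The C1s1 window held 2, the C/EBP match TTAGGCAA beginning 242 bases and the NF-kB match GGAGCTTCC beginning 12 bases before the start. The C1ra window held 0 matches. Of all 32851 promoter windows of this length in the table, 9.56% held the C/EBP letters, 7.02% the STAT, 7.13% the IRF and 15.7% the NF-kB letters. A match is a run of letters and not a bound site, and the search covers this window only.

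Each of the 7 members stood higher in fibroblasts than in smooth muscle cells in all 3 libraries, as the plot of levels by class and library shows, and in CNC_AngII C4b was highest in macrophages. Comparisons below are log2 ratios with 1 CPM added to both levels, among genes with a mean of at least 10 CPM over the 2 sides, and a gene is called at 2-fold. Between fibroblasts and smooth muscle cells 6 members met that minimum and were at least 2-fold higher in fibroblasts in each library, beside 8.41% of 6733 genes. Nothing is read from this count, since C3, C4b and Cfb met the minimum only through their fibroblast level, as did C1ra and C1s1 in CNC_AngII, and with a minimum of 50 CPM it was 3. Fibroblasts contributed 82.4%, 74.1% and 69.5% of the C3 UMIs of all kept cells and smooth muscle cells 0.446%, 1.76% and 2.10%. For other members fibroblasts did not hold the largest share in CNC_AngII: they contributed 33.5% of the C2 UMIs against 43.0% in macrophages, 19.3% of the C4b UMIs against 66.4% in macrophages, and 33.9% of the Serping1 UMIs against 44.7% in smooth muscle cells.

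**Figure D1:**
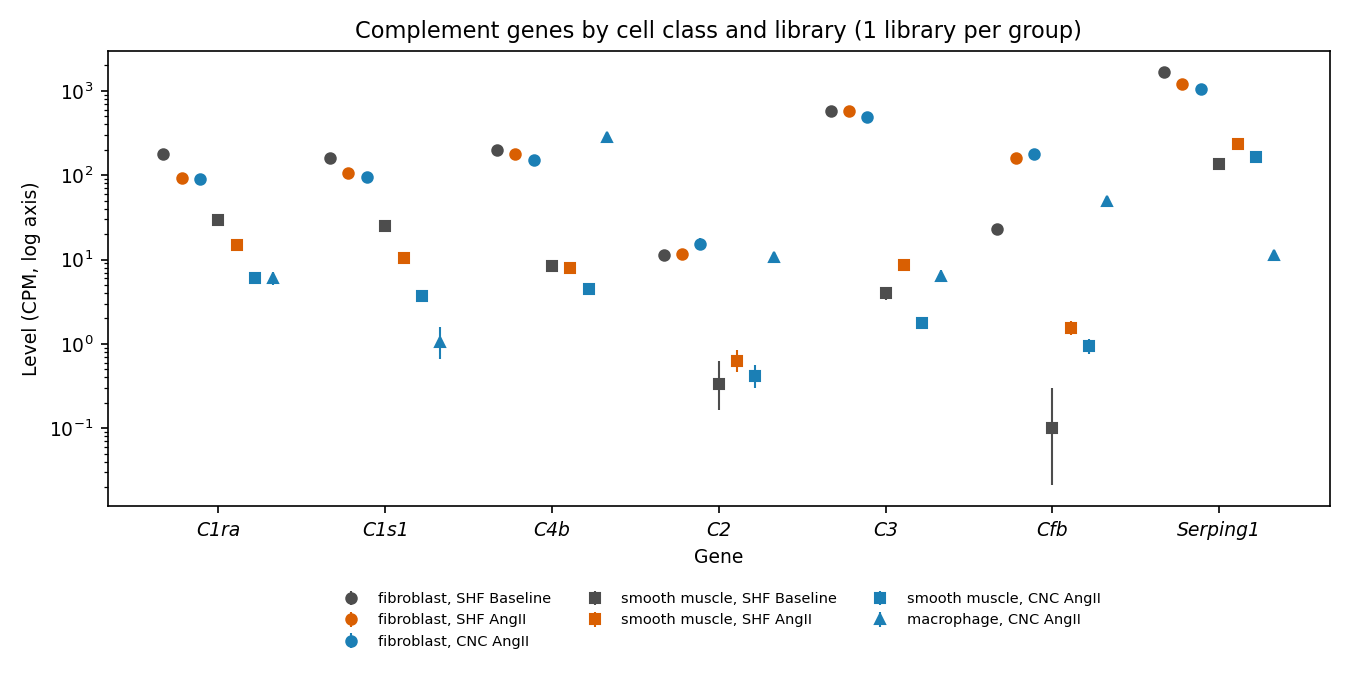
Levels of the 7 complement genes (CPM, log axis) in fibroblasts (circles) and smooth muscle cells (squares) of 3 libraries and in macrophages of CNC_AngII (triangles); bars are 95% Poisson intervals and each point is 1 library. Fibroblast points lie above smooth muscle points for each gene, C4b is as high in macrophages (284 CPM) as in fibroblasts or higher, and Cfb stands at 22.7 CPM in baseline fibroblasts against 160 and 179 CPM in the AngII libraries.

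The proteases of the C1 complex, C1ra and C1s1, were lower in AngII fibroblasts and lower still in AngII smooth muscle cells. C1ra stood at 178, 93.7 and 89.0 CPM in fibroblasts and at 29.4, 15.0 and 5.996 CPM in smooth muscle cells. C1s1 stood at 159, 105 and 96.3 CPM in fibroblasts and at 24.8, 10.3 and 3.66 CPM in smooth muscle cells. Both genes were highest in SHF_Baseline in both classes, and in smooth muscle cells all 3 libraries were apart by more than the counting intervals. The 2 genes had alike profiles, with a Pearson r of 0.98 over the 7 class and library profiles, as a description.

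In smooth muscle cells of SHF_AngII against SHF_Baseline, 3 members reached the minimum. C1s1 was at least 2-fold lower (log2 ratio -1.19, and -1.27 without the added CPM, 95% counting interval -1.42 to -1.12), where 3.53% of 7000 genes were called lower. C1ra was lower by less than 2-fold (log2 ratio -0.93), and 0 of the 3 was called higher, where 2.86% of genes were. The median of all genes was -0.10 here. TMM scaling (trimmed mean of M-values, which centres the bulk of genes) raises it by 0.17, to 0.07. Under it C1s1 remained past 2-fold at -1.03 and C1ra stood at -0.76. The C1s1 call ended when every cell was thinned to 2000 UMIs (-0.99) or 10 CPM was added (-0.78). A stricter cell filter (1000 genes or more, mitochondrial share up to 5%), which leaves 120 smooth muscle cells in SHF_Baseline, moved C1ra to -2.12, past 2-fold, and C1s1 to -1.88.

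In fibroblasts the same comparison gave log2 ratios of -0.92 for C1ra and -0.59 for C1s1, neither past 2-fold. Under TMM they were -0.64 and -0.32, still below 0. The all-gene median was -0.21, above both values, and TMM raises it by 0.27. Cells with a C1ra UMI made up 64.6%, 65.7% and 59.9% of fibroblasts, and 28.2%, 18.1% and 19.6% once each cell was thinned to 2000 UMIs. For C1s1 the shares were 58.8%, 64.2% and 58.3% unthinned and 26.1%, 19.97% and 19.4% thinned. The median depth of fibroblasts was 9534, 15486 and 12380 UMIs, so the thinned shares are the comparable ones.

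Between the AngII libraries, 2 members could be compared in smooth muscle cells, and C1ra was at least 2-fold lower in CNC_AngII (log2 ratio -1.19). The shares of all 6765 genes called were 0.355% lower and 0.443% higher, and 0 of the 2 members was higher. Nothing is read from these counts, since C1ra met the minimum only through its SHF_AngII level (15.0 CPM, against 5.996 CPM in CNC_AngII). C1s1 had the same direction (-1.28) but a mean under 10 CPM. Some fibroblast marker RNA in smooth muscle cells moved the same way. Dcn, a matrix proteoglycan, stood at 174 CPM in SHF_AngII and 20.3 CPM in CNC_AngII, and Pi16 at 11.9 and 5.34 CPM. Lum, Dpt and Serpinf1 were also lower in CNC_AngII. Col1a1 (1105 and 1138 CPM) and Gsn (524 and 611 CPM) went the other way. The part of fibroblast RNA in the C1ra difference was tried only by a subtraction. With 5% of the library profile taken off each class as free RNA, the C1ra ratio was -1.13, but its mean then fell under 10 CPM and the call ended.

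The level of a gene in smooth muscle cells as a percentage of that in fibroblasts sets these values beside those of fibroblast markers. Dcn gave 2.002%, 3.01% and 0.436%, Dpt 1.32%, 2.10% and 0.622%, Lum 4.35%, 5.56% and 0.798%, and Pi16 0.536%, 0.885% and 0.398%. C1ra gave 16.5%, 16.0% and 6.74% and C1s1 15.6%, 9.79% and 3.80%. Both lay above these 4 markers in every library. The other 3 fibroblast markers plotted were Serpinf1 at 2.92%, 6.36% and 1.35%, and Col1a1 and Gsn, which smooth muscle cells also express, at up to 29.9% and 34.8%.

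**Figure D2:**
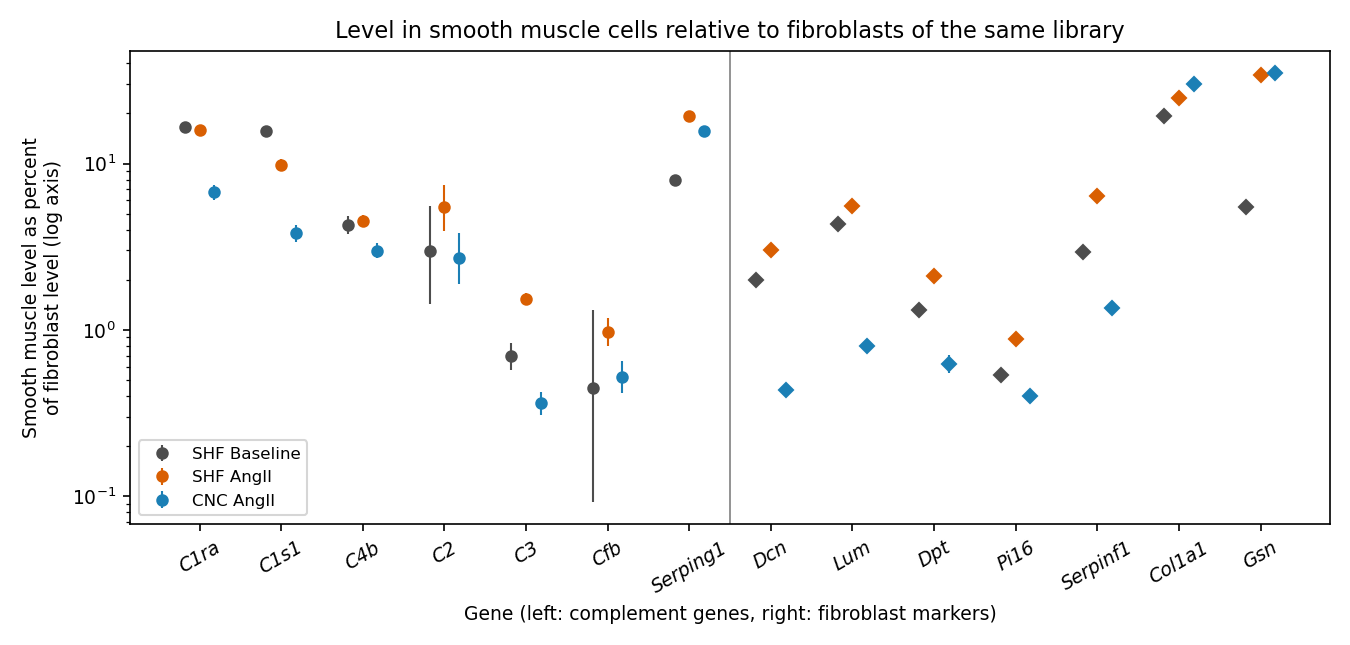
Level in smooth muscle cells as a percentage of the fibroblast level of the same library (log axis), for the 7 complement genes (left, circles) and 7 fibroblast markers (right, diamonds), coloured by library, with 95% counting intervals. C3 (0.694%, 1.53% and 0.361%) and Cfb lie below Dpt and Lum in every library, whereas C1ra, C1s1 and Serping1 lie above Dcn, Dpt, Lum and Pi16. C3 lies above Pi16 in SHF_Baseline and SHF_AngII. Cfb lies above Pi16 in SHF_AngII and CNC_AngII, and above Dcn in CNC_AngII.

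C4b, the protein cut by C1s to start the C3 convertase, was high in fibroblasts and macrophages and low in smooth muscle cells. In fibroblasts it stood at 198, 178 and 151 CPM and in smooth muscle cells at 8.43, 8.03 and 4.53 CPM. In macrophages of CNC_AngII it stood at 284 CPM (95% Poisson interval 277 to 292), above all 3 fibroblast values. The ratio of macrophages to fibroblasts in that library was 0.91 on the log2 scale, under 2-fold. A C4b UMI was found in 62.3% of those macrophages (35.5% thinned) and in 3.30% of smooth muscle cells of the same library (1.002% thinned), at median depths of 11015 and 13450 UMIs. Macrophages held 66.4% of the C4b UMIs of the library's kept cells and fibroblasts 19.3%, whereas in the SHF libraries fibroblasts held 74.3% and 71.6%.

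The macrophage C4b signal was concentrated in cells with Lyve1, a hyaluronan receptor of resident tissue macrophages. Of the 1792 macrophages, 1350 had a Lyve1 UMI, 302 had Ccr2, a chemokine receptor of monocyte-derived cells, without Lyve1, and 140 had neither. C4b stood at 344 CPM with Lyve1, at 13.2 CPM with Ccr2 alone and at 123 CPM with neither. The ratio of the first to the second was 26.1-fold, a log2 ratio of 4.70 with a counting interval of 4.25 to 5.20, at median depths of 11726 and 9629 UMIs. C2 was also lower in the Ccr2 cells than in the Lyve1 cells, with few counts, 210 UMIs (12.5 CPM) against 3 UMIs (1.01 CPM). Unlike C4b, C2 did not clearly differ between the Lyve1 cells and those with neither (log2 ratio 0.21, counting interval -0.59 to 1.15). Cfb stood at 54.0, 28.7 and 38.9 CPM. Dcn stood at 36.4, 50.03 and 131 CPM and so was lowest in the Lyve1 cells. All the cells come from 1 library.

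**Figure D3:**
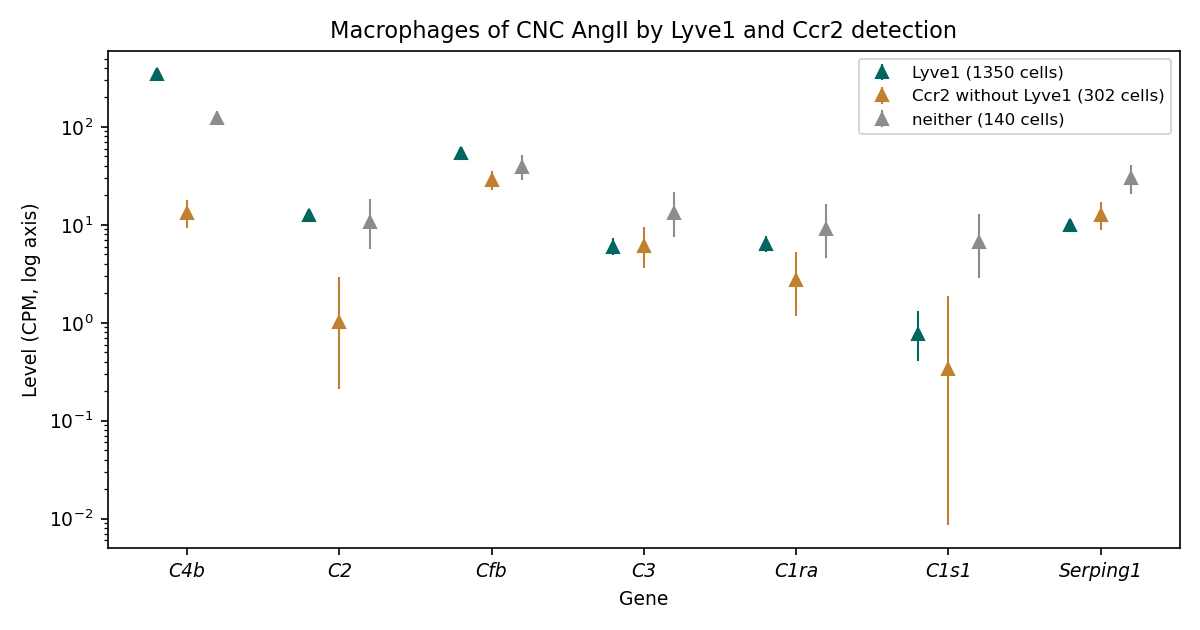
Levels (CPM, log axis) of the 7 members in macrophages of CNC_AngII with a Lyve1 UMI, with a Ccr2 UMI but no Lyve1, and with neither; bars are 95% Poisson intervals. C4b is 344 CPM in the Lyve1 cells and 13.2 CPM in the Ccr2 cells, while C3 is 6.01 and 6.08 CPM.

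C2, the catalytic partner of C4b, was low in every class. It stood at 11.3, 11.6 and 15.4 CPM in fibroblasts, at 10.8 CPM in macrophages of CNC_AngII and at 0.338, 0.633 and 0.417 CPM (10, 44 and 40 UMIs) in smooth muscle cells. The fibroblast intervals of the SHF libraries overlapped, and the CNC_AngII interval (13.2 to 17.8 CPM) lay above both. A C2 UMI was found in 7.64%, 11.6% and 13.9% of fibroblasts and, thinned, in 2.42%, 2.10% and 2.99%.

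C3, on which all pathways converge, differed little between fibroblasts of the libraries. It stood at 576, 569 and 486 CPM in fibroblasts, and the SHF_AngII to SHF_Baseline log2 ratio was -0.02 (counting interval -0.04 to 0.01). With the median of all genes at -0.21 in this comparison, the ratio is 0.26 under TMM, so its sign depends on the scaling, as does that of C4b (-0.15, and 0.13 under TMM). A C3 UMI was found in 55.1%, 77.8% and 65.8% of fibroblasts, and in 38.6%, 46.6% and 41.5% after thinning. In smooth muscle cells C3 stood at 3.99, 8.72 and 1.75 CPM, below the minimum. Cells at the edge of the smooth muscle class held part of it: 39 of the 118 UMIs of SHF_Baseline and 86 of the 606 of SHF_AngII came from the 40 and 118 cells with 5 or 6 Myh11 UMIs, in which Dcn stood at 3204 and 1117 CPM. Just outside the cut, in 36 and 77 cells with 3 or 4 Myh11 UMIs, C3 stood at 27.7 and 100 CPM. In macrophages C3 was 6.44 CPM, 1.33% of the fibroblast level, beside 0.938% for Dcn and 1.43% for Dpt.

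Cfb was the member that differed most between SHF_AngII and SHF_Baseline fibroblasts. There it stood at 22.7, 160 and 179 CPM, and both AngII libraries were far above baseline. The SHF_AngII to SHF_Baseline log2 ratio was 2.77 (2.82 without the added CPM, interval 2.72 to 2.92), a 6.80-fold difference, and it was the 1 of 7 members called higher. All genes called higher made up 4.64% of 7693. None of the 7 was called lower, where 10.7% of genes were. The ratio ranged from 2.38 to 3.05 over the alternatives tried. A Cfb UMI was found in 13.8%, 55.9% and 57.4% of fibroblasts, and in 4.11%, 22.9% and 25.6% after thinning. In smooth muscle cells it had 3, 108 and 90 UMIs (0.102, 1.55 and 0.939 CPM), or 0.447%, 0.970% and 0.523% of the fibroblast level. These shares lay below those of the fibroblast markers Dpt and Lum in each library. They lay above Pi16 in SHF_AngII (0.885%) and CNC_AngII (0.398%), and above Dcn in CNC_AngII (0.436%).

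The Cfb difference cannot be told apart from a difference in gene annotation. The baseline file lists 18760 genes, all with a UMI. The AngII files list 32285, of which 20568 in SHF_AngII and 20740 in CNC_AngII had a UMI. Much of the gap in list length is thus genes without a UMI. In GENCODE M21, 77.6% of the last 500 exonic bases of Cfb, where 3' reads fall, are shared with Gm20547, a readthrough gene on the same strand that also covers 6.20% of those of C2, and counting rules can discard reads in shared bases. Among fibroblast genes with at least 50% of such bases shared, 28.8% of 66 were at least 2-fold higher in SHF_AngII than in SHF_Baseline, against 4.42% of 7497 genes with none shared. Differences past 4-fold, as that of Cfb, made up 24.2% and 1.49%. Between the AngII libraries, which share a gene list, 0 of 59 such genes were called higher, beside 0.469% of 7034 genes with none shared. At so low a share nothing is read from that 0. The other 5 members had no overlapped bases.

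**Figure D4:**
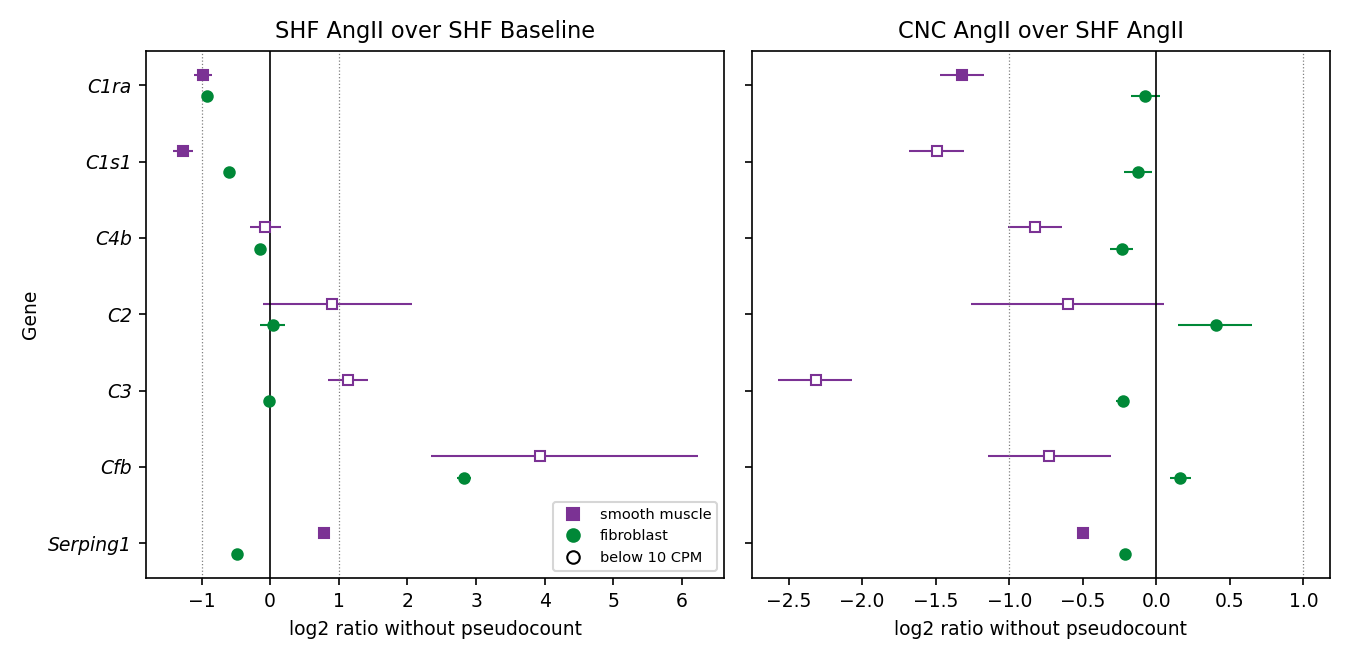
log2 ratios without pseudocount, with 95% counting intervals, of SHF_AngII over SHF_Baseline (left) and CNC_AngII over SHF_AngII (right) in smooth muscle cells (squares) and fibroblasts (circles); open symbols have a mean under 10 CPM and dotted lines mark 2-fold. Cfb stands at 2.82 in fibroblasts on the left, and on the right the fibroblast values lie between -0.24 and 0.40.

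Between CNC_AngII and SHF_AngII fibroblasts no member was past 2-fold: 0 of 7 was called higher and 0 lower, where 0.457% and 0.152% of 7215 genes were. The log2 ratios ran from -0.23 for C4b and C3 to 0.37 for C2, and that of Cfb was 0.16. The counting interval of the ratio included 0 for C1ra alone. The members' median was -0.13 and that of all genes 0.01.

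Serping1, the inhibitor of C1r and C1s, was found in nearly all fibroblasts and most smooth muscle cells. It stood at 1685, 1209 and 1044 CPM in fibroblasts and at 134, 232 and 164 CPM in smooth muscle cells. A UMI was found in 98.0%, 99.6% and 98.0% of fibroblasts and in 71.0%, 86.5% and 81.6% of smooth muscle cells (89.5%, 85.8% and 78.3%, and 23.1%, 35.3% and 27.6%, after thinning). SHF_AngII was below SHF_Baseline in fibroblasts (log2 ratio -0.48, and -0.20 under TMM) and above it in smooth muscle cells (0.79, and 0.96 under TMM), both under 2-fold. The smooth muscle value turned to -0.55 under the stricter cell filter. It rose to 1.21, past 2-fold, with 5% of the library profile subtracted as free RNA. As a percentage of the fibroblast level the smooth muscle level was 7.98%, 19.2% and 15.7%. Smooth muscle cells held 4.76%, 17.6% and 44.7% of the library's Serping1 UMIs, a share that also moves with their number. In macrophages Serping1 was 11.4 CPM, 1.09% of the fibroblast level.

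Across CNC_AngII macrophages and fibroblasts, 0 of the 7 members was at least 2-fold higher in macrophages (18.1% of 7743 genes were) and 5 were lower (17.5% of genes were). Of the 5, C3, C1ra and C1s1 met the 10 CPM minimum only through their fibroblast level, so nothing is read from the count. The 5 were C3, C1s1 and Serping1, at 1.33%, 1.09% and 1.09% of the fibroblast level, close to the 0.938% of Dcn, C1ra at 6.81%, and Cfb at 27.6%. Cfb (49.6 CPM, with a UMI in 31.8% of macrophages and 9.30% after thinning) thus lay above the listed fibroblast markers in macrophages. Of these, Dcn, Dpt, Lum, Pi16 and Col1a1 reached at most 1.43%, Serpinf1 gave 1.73%, and Gsn gave 10.9%, above C1ra.

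Within fibroblasts the members did not move as a block. Pi16 marks adventitial fibroblasts, and 3389, 2375 and 715 fibroblasts had a Pi16 UMI against 550, 265 and 127 without. In SHF_Baseline, C3 stood at 615 CPM with Pi16 and 320 CPM without, and Cfb at 24.9 and 8.28 CPM, while C4b stood at 175 and 343 CPM and C2 at 9.41 and 23.9 CPM. C1ra (182 and 150.5 CPM), C1s1 (167 and 109 CPM) and Serping1 (1738 and 1345 CPM) were higher with Pi16, so C4b and C2 were the 2 members higher without it. In SHF_AngII the C3 and C4b contrasts were small, with log2 ratios of 0.04 and 0.08, whereas Cfb remained higher with Pi16 (166 and 90.7 CPM) and C2 lower (10.3 and 26.8 CPM). In CNC_AngII, Cfb was 187 and 129 CPM and C2 14.2 and 23.7 CPM. Genes of other cell types moved with Pi16 too. In CNC_AngII the macrophage genes C1qa and Mrc1 stood at 28.1 and 7.39 CPM with Pi16 and at 195 and 32.8 CPM without. Acta2, a smooth muscle actin also made by activated fibroblasts, stood at 526, 1812 and 1749.6 CPM with Pi16 and at 959.6, 4004 and 3621 CPM without. The part of such RNA in these differences was not tested.

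Cthrc1, a secreted protein of matrix-producing activated fibroblasts, divided the AngII fibroblasts. With a Cthrc1 UMI (1646 and 470 cells) Serping1 stood at 1049 CPM in SHF_AngII and 853 CPM in CNC_AngII, against 1674 and 1442 CPM without (994 and 372 cells). C3 was also lower with Cthrc1, at 515 and 427 CPM against 728 and 607 CPM. Cfb was higher with it, at 167 and 195 CPM against 142 and 146 CPM. Both libraries showed the same directions. Cells with Cthrc1 were deeper, at a median of 19231 and 15158 UMIs against 10657 and 8766, and the part of depth in these differences was not tested.

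C4b differed by Igfbp2 among smooth muscle cells. In SHF_AngII it stood at 2.93 CPM in 3136 cells with Igfbp2 and at 22.3 CPM in 1513 cells without. Dcn moved with it, at 80.5 and 434 CPM. In CNC_AngII the C4b values were 3.74 and 8.83 CPM, those of Dcn 17.001 and 38.5 CPM, and those of the macrophage genes C1qa and Mrc1 64.7 and 150.1 CPM, and 14.1 and 29.5 CPM. The part of fibroblast and macrophage RNA in these differences was not tested.

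Spearman correlations of members over fibroblasts thinned to 2000 UMIs were weak. C3 and Serping1 gave 0.31, 0.35 and 0.40, C3 and C4b 0.16, 0.29 and 0.33, and C1ra and C1s1 0.14, 0.13 and 0.17, over 3767, 2624 and 836 cells of 1 library each. By pattern over the 7 profiles (Pearson r of log2 levels, among 7780 genes), the genes most like C3 were Dpep1, Cygb and Has1, with r from 0.998 to 0.999. Those most like C1ra were Ackr3, Mdk and Dcn, and those most like C1s1 were Adgra2, 1200007C13Rik and Rhou. For C4b they were Mrps33, Zfp277 and Marcks, for C2 Fbxl15, Sgta and Ptgs1, for Cfb Pop4, Plac8 and Dtymk, and for Serping1 Arf4, Ppdpf and Rab23. With 7 profiles that share libraries, many genes reach such values.

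Of 48 other complement genes listed for comparison, 42 were in all files. In fibroblasts 8 of them could be compared between SHF_AngII and SHF_Baseline, of which 3 were at least 2-fold lower in SHF_AngII and 0 higher, where 10.7% and 4.64% of all genes were. Cd55, a membrane protein that speeds decay of the convertases, stood at 203, 64.0 and 47.8 CPM, a log2 ratio of -1.65. The collectins Colec12 and Colec11 stood at 224, 89.3 and 85.1 CPM (-1.31) and at 24.1, 4.79 and 5.94 CPM (-2.12). Colec11 met the 10 CPM minimum only through its SHF_Baseline level. C7, part of the membrane attack complex, stood at 21.3, 20.3 and 16.0 CPM. The median of the 8 was -0.46 and that of all genes -0.21. Under TMM the 3 remained at or below -1.04.

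**Figure D5:**
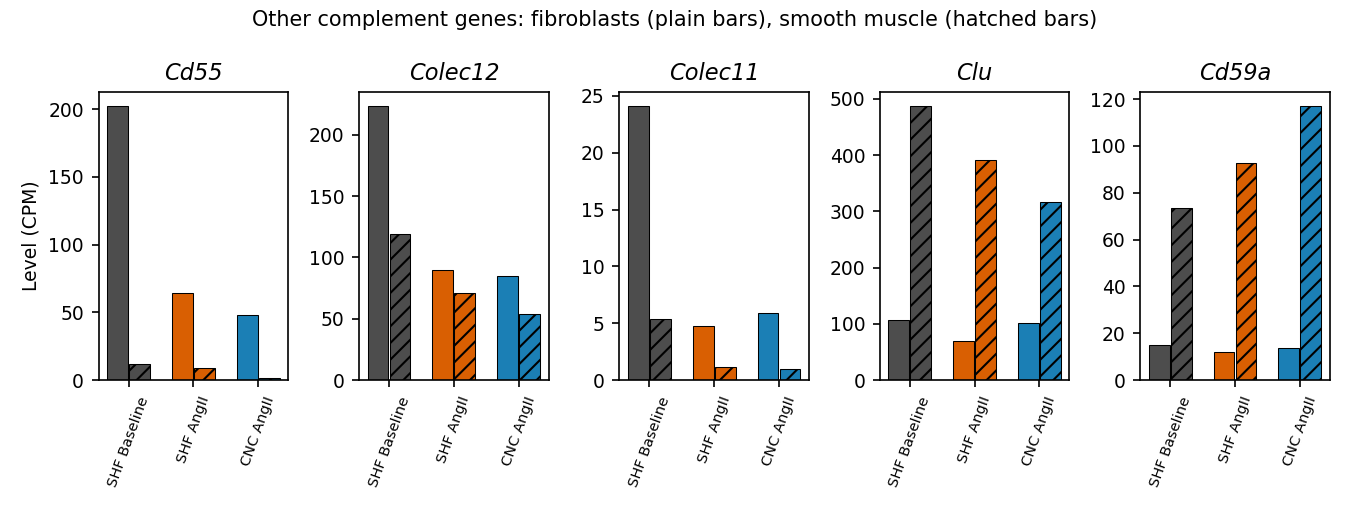
Levels (CPM, linear axes from 0) of 5 other complement genes in fibroblasts (plain bars) and smooth muscle cells (hatched bars) of the 3 libraries, 1 library a bar. Cd55, Colec12 and Colec11 are highest in baseline fibroblasts, and Clu and Cd59a are higher in smooth muscle cells in every library.

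Among smooth muscle cells 5 of the listed genes could be compared between SHF_AngII and SHF_Baseline, and 0 was past 2-fold in either direction, where 2.86% of all genes were higher and 3.53% lower. Clusterin (Clu), which binds terminal complexes, stood at 488, 392 and 316 CPM and Cd59a, which blocks the membrane attack complex, at 73.5, 92.5 and 117 CPM, both at least 2-fold above fibroblasts in every library.

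C1q, the recognition part of the C1 complex, was highest in macrophages. In CNC_AngII macrophages C1qa, C1qb and C1qc stood at 7508, 6734 and 4376 CPM. Other genes at 10 CPM or more there included Fcna at 717, Cfp (properdin, which stabilises the alternative convertase) at 499.7, C5ar1 at 333, Vsig4 at 287, C3ar1 at 279.7, Itgam at 215 and Itgb2 at 161 CPM. Of 15 genes compared with fibroblasts, 11 were at least 2-fold higher and 2 (Clu and Cd55) lower, where 18.1% and 17.5% of all genes were. Nothing is read from these counts. Fcna, Cfp, C5ar1, Vsig4, C3ar1, Itgam, Itgb2 and Cd93 (37.8 CPM) met the 10 CPM minimum only through their macrophage level. Clu and Cd55 met it only through their fibroblast level. C1qa, C1qb and C1qc were also called higher in CNC_AngII than in SHF_AngII smooth muscle cells, at 77.9, 74.3 and 44.6 CPM against 4, 3 and 3 UMIs, as the 3 called of 7 compared (0.443% of all genes were called higher). Those levels are 1.04%, 1.10% and 1.02% of the macrophage level, beside 1.41% for Ptprc and 1.20% for Laptm5, genes of blood-derived cells. The C4b of CNC_AngII smooth muscle cells (4.53 CPM) was 1.59% of the macrophage level, but C4b stood at 8.43 and 8.03 CPM in smooth muscle cells of the SHF libraries. The part of macrophage RNA in the C1q and C4b levels of smooth muscle cells was not tested. The same 3 genes, of 10 compared, were called higher in CNC_AngII fibroblasts, at 49.1, 42.2 and 34.1 CPM, where 0.457% of all genes were. In both classes these 3 genes met the 10 CPM minimum only through CNC_AngII, so nothing is read from either count.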

How the data were processed

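Single-cell libraries of sorted aortic cells were made with the 10x Chromium 3' v3 kit, per the labels' protocols. The deposited files hold raw UMI counts per gene and barcode, with no normalisation. Per the submitters' processing notes the build was mm10 and the tools fastp, STAR 2.5 and HTSeq 0.6.1, with no roles given. The gene lists differ between the baseline and AngII files: 18108 genes were common, 514 of them through a unique synonym, with 13 repeated names left out, and held 99.8%, 99.5% and 99.5% of the UMIs.

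Barcodes passed with 500 or more genes and a mitochondrial share of up to 10%. Doublets marked by Scrublet in scanpy 1.11.5 (207, 192 and 279 cells) were left out. UMIs were summed per class and library and divided by the class total (CPM). Ratios are log2 with 1 CPM added. Genes with a mean of at least 10 CPM were compared, and called at 2-fold. Intervals are exact Poisson for sums, conditional binomial for ratios and Clopper-Pearson for shares, at 95%. PCR duplicates are removed by UMIs, and the intervals cover counting error only, not mice or preparations. edgeR 4.0.16 (TMM) and DESeq2 1.42.0 (size factors) gave alternative scalings only. Calling of 2-fold differences was tested on simulated data.

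The members, the gene lists, the markers and the rules were chosen with earlier results of these data known. The genes named are all members, listed complement genes past 2-fold or with at least 10 CPM in a class, listed inducers, and the 3 genes nearest in pattern to each member. Genes and their copies can share reads: of windows of 90 bases in the last 500 exonic bases, 20.2% of C4b are also in C4a, 11.2% of C1ra in C1rb and 2.68% of C1s1 in C1s2, so the values of these members are uncertain to that extent. C4a is listed only in the AngII files, at no more than 0.290 CPM in smooth muscle cells, fibroblasts and macrophages. A listed gene is not reported here and was left out of the list counts.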

Additional observations from a re-analysis of the deposited data

Results flagged for a closer look

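Serping1 moved in opposite directions in the cell classes under the same contrast. The log2 ratio of SHF_AngII over SHF_Baseline was 0.79 in smooth muscle cells (134 and 232 CPM) and -0.48 in fibroblasts (1685 and 1209 CPM). The difference was not tested, since each group had 1 library. The smooth muscle value was -0.55 under the stricter cell filter and 1.21 with 5% of the library profile subtracted as free RNA.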

How the results depend on the processing

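With 1 library a group there is no estimate of variation between mice. No paired analysis was possible because each group had 1 library and the labels give no replicate numbers. Of the values of counts of called members under alternatives, 129 were within 1.5 times the main count and 11 moved; the cause was not tested except where a minimum or an added CPM is the alternative. Members higher in SHF_AngII than SHF_Baseline smooth muscle cells went from 0 to 1 with 5% of the library profile subtracted as free RNA and with no gene minimum. Members lower in that comparison went from 1 to 4 under the stricter cell filter and to 0 with cells thinned, with 10 CPM added and with a minimum of 50 CPM. Members lower in CNC_AngII than SHF_AngII smooth muscle cells went from 1 to 0 with free RNA subtracted, with 10 CPM added and with a minimum of 50 CPM, and to 3 with no minimum. Members higher in fibroblasts than smooth muscle cells in every library went from 6 to 3 with a minimum of 50 CPM. The counts in fibroblasts between libraries, and of members higher in macrophages than fibroblasts, did not move. The count of members lower in macrophages was not among these values, and C1ra and C1s1 had means under 50 CPM in that comparison. No member ratio called in the main run changed sign under any alternative run. Ratios not called there could change sign. In smooth muscle cells of SHF_AngII over SHF_Baseline, C3 ran from -1.09 to 1.13, C4b from -1.04 to 0.52 and Serping1 from -0.55 to 1.21. The lowest value of each came under the stricter cell filter. Low counts limit C2 and Cfb in smooth muscle cells.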

Other observations

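Of 23 listed cytokines, receptors and factors known to induce complement genes, 21 were in all files, and in fibroblasts 16 could be compared between SHF_AngII and SHF_Baseline. Lif and Irf7 were at least 2-fold higher (log2 ratios 1.93 and 1.48) and Socs3 and Lifr at least 2-fold lower (-1.89 and -1.34), where 4.64% of all genes were higher and 10.7% lower. Lif met the 10 CPM minimum only through its SHF_AngII level (21.1 CPM, against 4.80 CPM in SHF_Baseline). Irf7, an interferon-responsive factor, stood at 13.1, 38.4 and 47.3 CPM in SHF_Baseline, SHF_AngII and CNC_AngII. Il1r1, the interleukin-1 receptor, stood at 28.2, 55.4 and 45.8 CPM (0.95, and 1.22 under TMM). Socs3, a feedback inhibitor of interleukin-6 signalling, stood at 671, 181 and 179.9 CPM, while Il6 itself stood at 189.6, 209 and 147 CPM. In smooth muscle cells Socs3 (286, 115 and 95.2 CPM) and Cebpb (659, 319.6 and 267 CPM) were at least 2-fold lower in SHF_AngII than in SHF_Baseline, and of the 12 genes compared none was at least 2-fold higher, where 3.53% of all genes were lower and 2.86% higher. The call for Cebpb ended under TMM (-0.87). Between the AngII libraries no listed inducer was past 2-fold in fibroblasts (16 compared) or in smooth muscle cells (12 compared). Of all genes, 0.457% were higher and 0.152% lower in fibroblasts, and 0.443% and 0.355% in smooth muscle cells, so nothing is read from these counts.

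In CNC_AngII macrophages Il1b stood at 333 CPM, Tnf at 115 CPM and Osm at 64.5 CPM. Il1r1 and Osmr, the receptors of Il1b and Osm, stood at 45.8 and 48.5 CPM in fibroblasts and at 0.667 and 0.620 CPM in macrophages. Il6st was also higher in fibroblasts (111 and 15.4 CPM). The other listed receptors were higher in macrophages: Lifr (18.9 CPM in fibroblasts and 102 CPM in macrophages), Il6ra (4.10 and 50.4), Ifngr1 (79.8 and 116) and Ifngr2 (63.2 and 74.5). Signalling between the classes was not tested. Cebpd is listed only in the AngII files, at 899 and 882 CPM in fibroblasts.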
